A study of Homo sapiens with 4 samples.

Results

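The genes described here are 52 deubiquitinase genes: 50 ubiquitin-specific protease genes, whose symbols are USP followed by a number, and STAMBP and STAMBPL1, a pair of zinc-dependent deubiquitinases of the JAMM family. They were picked by symbol from 26255 gene symbols in each of 4 RNA-seq libraries, with earlier results of these data known. A further 35 symbols that begin with USP and a digit were left out, of which 24 belong to the repeated USP17 cluster, 7 are antisense genes and 2 are pseudogenes; USP18, an interferon-induced gene whose product removes ISG15, and USP6NL, which is no protease, complete them. The libraries came from MIA PaCa-2 and PSN-1, established human pancreatic cancer lines; cells of each received either a miR-4800-3p mimic, an oligonucleotide that acts as the mature microRNA, or a scramble control. There was 1 library for each of the 4 combinations, so no value has a replicate, and the labels used here give no dose, time after transfection or number of cultures behind a library. The study looked for messenger RNAs that the microRNA targets.

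Ubiquitin is a small protein that ligases attach to other proteins, as a single unit or as a chain, to mark them for the proteasome, for sorting on endosomes or for a change in activity. Deubiquitinases cut it off again. Most USP proteins are cysteine proteases, and the USP family is the largest deubiquitinase family in human cells. STAMBP (also called AMSH) and STAMBPL1 (AMSH-LP) cut chains linked through lysine 63 on endosomes, beside the ESCRT machinery. USP39, USP50, USP53 and USP54 were grouped here as having no or little catalytic activity. In pancreatic cancer cells, as in other tumour cells, several USP proteins are studied because they stabilise cell cycle, DNA repair and signalling proteins.

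A microRNA pairs with messenger RNA mainly through its seed, bases 2 to 8. The RefSeq sequence of the mature strand (GRCh38.p14, chromosome 4, 2250091 to 2250109, minus strand) is shown with the seed in capitals, followed by the matches found in the annotated messenger RNAs of 5 genes that are described below, with the matched letters in capitals. They are shown because they hold the longest matches in this gene family, both 3' UTR matches and a coding match in USP54. The USP54 match was picked because that gene was lower in PSN-1, so it is no sign of a link with direction. The coding sequences of USP25, USP31 and USP42 hold the same match and are not shown. Of these genes, USP25 and USP42 were higher in PSN-1 and USP31 was lower.
miR-4800-3p: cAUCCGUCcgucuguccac
USP8, coding sequence: tacacaatgatGACGGATAaaaacatcagc
USP53, coding sequence: gatagctgcatGACGGATAcatatagattg
USP31, 3' UTR: tgtttgtatgaGACGGATgtgggatttga
USP37, 3' UTR: cacatacagctACGGATAtaatgaaaatt
USP54, coding sequence: tttttcagagtGACGGATgaccgggccaa

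Only the sense strand of each messenger RNA was searched, for GACGGAT, for ACGGATA and for the longer GACGGATA that contains both, in the longest annotated 3' UTR and the longest coding sequence of each gene in GENCODE 29. All 52 symbols matched that annotation. The 3' UTR held a match in 2 of the 52 genes (3.85%), against 404 of 19644 protein-coding genes (2.06%). The coding sequence held one in 7 of the 52 (13.5%), against 845 of 19644 (4.30%). These shares are not corrected for length, and a longer sequence has more places for a match. The median 3' UTR was 1607 bases in the 52 genes and 1053 in all protein-coding genes. Lengths of coding sequences were not compared, and the part of length in these shares was not tested. In all, 9 matches lay in 8 genes: USP31 had one in each region, and USP25, USP42 and USP50 had one each in the coding sequence. The USP8 match lies on chromosome 15 (50465081 to 50465088, plus strand) and the USP53 match on chromosome 4 (119293124 to 119293131, plus strand), both in coding exons. The USP31 match in the 3' UTR lies on chromosome 16 (23064458 to 23064464, minus strand), and that of USP37 on chromosome 2 (218451575 to 218451581, minus strand). The USP54 match lies in a coding exon on chromosome 10 (73539573 to 73539579, minus strand). All of these positions are GRCh38, another build than the hg19 that the submitters name. STAMBPL1 had no match in its 3' UTR of 1840 bases or in its coding sequence.

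Values are FPKM, fragments scaled by transcript length and library size, which can be compared between genes because they are per length. How library size was set is not given in the sources used here. The spacing of low values put 1 FPKM at about 12.8 to 16.1 fragments per kb of transcript, depending on the library, and the counting errors given below come from that estimate, on the scale of the change they stand beside. MIR4800 was listed at 0 in all 4 libraries, which were made from polyadenylated RNA and so hold no mature microRNA; the uptake of the mimic is therefore not checked here. Of the 6 epithelial markers, KRT8 and KRT18 were at 495 to 923 FPKM. KRT19 was at 178 (mimic) and 131 (scramble) FPKM in MIA PaCa-2 and at 78.2 and 92.3 in PSN-1. In both MIA PaCa-2 libraries KRT7 was listed at 0 and EPCAM and CDH1 stayed under 1 FPKM. In PSN-1 KRT7 was at 287 (mimic) and 406 (scramble) FPKM, EPCAM at 28.4 and 24.1, and CDH1 at 0.720 and 1.51. Of 5 leukocyte markers none reached 1 FPKM in MIA PaCa-2 and 2 did in PSN-1, where they summed to 5.58 (mimic) and 8.43 (scramble) FPKM. The 6 fibroblast and stellate cell markers summed to 67.0 to 99.0 FPKM per library, lower with the mimic in both lines, and the 4 endothelial markers to at most 7.99. Different genes made up the fibroblast sum in each line. In MIA PaCa-2 most of it was COL1A2, at 59.9 (mimic) and 76.8 (scramble) FPKM. In PSN-1 COL1A2 was at 0.0120 and 0, and COL3A1, the highest there, at 36.1 and 45.6. The part of these markers in the changes below was not tested.

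Most of the 52 genes were expressed at moderate levels in both lines. Calling a gene measured in a line where its 2 libraries averaged 1 FPKM or more, 44 were measured in both lines, USP51 in MIA PaCa-2 alone, and 7 in neither. Together the 52 genes took 0.182% to 0.207% of the summed FPKM of a library. USP11 had the highest mean over the 4 libraries, 105 FPKM, followed by USP22 (70.3), USP10, USP39 (44.9) and USP33 (37.7). Of the genes measured in neither line, USP26, a gene known from testis, was listed at 0 in all 4 libraries. USP29 was at 0.0231 FPKM in 1 library and listed at 0 in the others. USP6 was at 0.0708 to 0.208 FPKM, and its reads are uncertain because part of it is nearly identical to USP32. USP43 was at 0.0355 and 0.0597 FPKM in MIA PaCa-2 and at 0.474 (mimic) and 0.958 (scramble) in PSN-1. USP44 was listed at 0 in MIA PaCa-2 and was at 0.716 and 0.688 FPKM in PSN-1. USP50 lay between 0.0661 and 0.996 FPKM, and 545 bases of its exons overlap those of USP8 on the other strand. The 7th is USP9Y, whose values are not given.

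**Figure D1:**
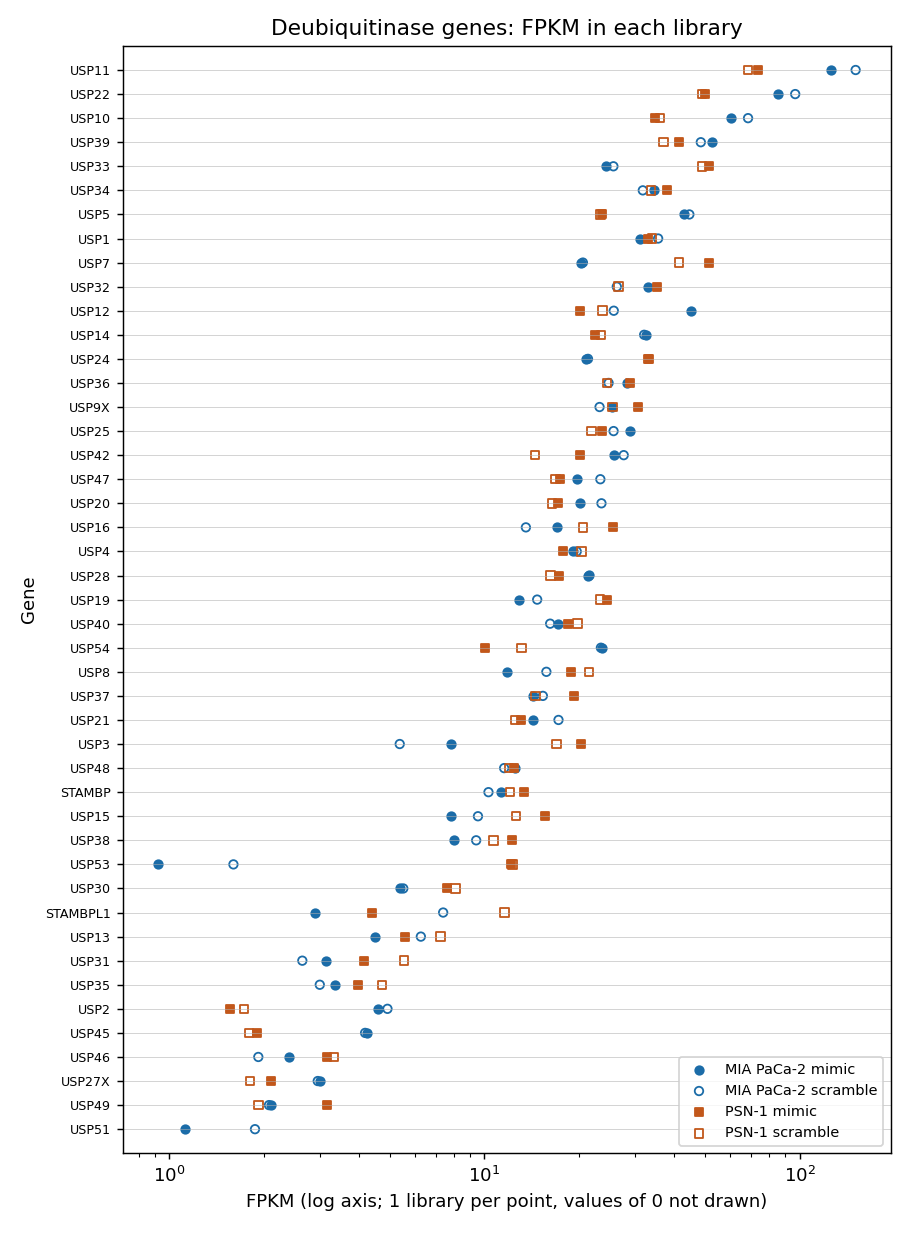
FPKM of the 45 genes measured in at least 1 line, on a log axis, with 1 point per library (filled for the mimic, open for the scramble; circles for MIA PaCa-2, squares for PSN-1). USP11 is at the top with 68.6 to 150.5 FPKM, USP53 has its points apart by line, and for STAMBPL1 both open points lie to the right of the filled ones.

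A single gene, STAMBPL1, was far lower with the mimic in both lines, and most of the others differed little. These are bulk libraries, in which fewer cells of a kind and less RNA per cell cannot be told apart. Pairs of levels are written mimic versus scramble, and pairs of changes MIA PaCa-2 before PSN-1. A change is log2 of mimic over scramble after 1 was added to each FPKM, which makes the changes of low genes look smaller than they are. With 1 library per group there is no test within a line, and a gene counts as past the threshold at 1.5-fold (0.585 on that scale). In MIA PaCa-2, 1 of 45 genes was higher past 1.5-fold and 1 was lower, where 5.43% and 4.06% of 11484 measured genes were. In PSN-1, 0 of 44 were higher and 1 was lower, where 3.17% and 3.87% of 12233 genes were. No member was higher past 2-fold in either line, where 1.31% of genes in MIA PaCa-2 were, and 0.85% of those measured in PSN-1. Either way, the share past 1.5-fold in MIA PaCa-2 was 4.44% for the family and 9.49% for all genes, while PSN-1 had 2.27% and 7.04%. Changes smaller than 0.2 made up 64.4% of the family for MIA PaCa-2 (all genes 52.0%) and 63.6% for PSN-1 (all genes 55.5%). The median change of the family was -0.018 in MIA PaCa-2 (all genes 0.014) and 0.058 in PSN-1 (all genes -0.016). In MIA PaCa-2 25 of the 45 were lower (55.6%, against 47.8% of all genes), and in PSN-1 28 of the 44 were higher (63.6%, against 47.6%).

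A limma model of all 4 libraries gave the mean effect over the lines, with a term for the line, which leaves 1 degree of freedom for the spread. Limma called 0 of 44 family members at a Benjamini-Hochberg adjusted p under 0.05, where it called 7 of 10678 genes (0.0656%), 0.0562% as higher and 0.00937% as lower. At an unadjusted p under 0.05 it had 1 member higher, USP32, and 1 lower, STAMBPL1, against 9.93% of all genes. Of the 44 members, 9 were lower in both lines, 13 were higher in both and 22 went opposite ways, so 22 of the 44 had the same sign in both lines, where 55.8% of 10678 genes did. Across the 44 members the changes in the 2 lines had a Pearson r of 0.45, which was 0.089 without STAMBPL1; members share their 4 libraries and are not independent replicates.

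**Figure D2:**
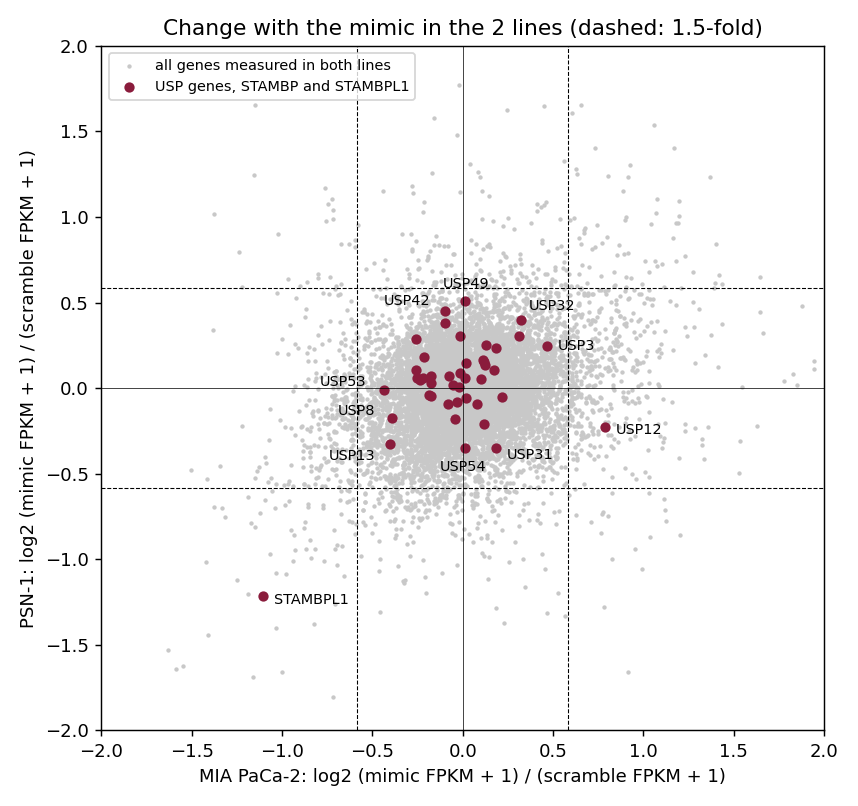
Change with the mimic in MIA PaCa-2 (x axis) against PSN-1 (y axis), on the log2 scale with 1 added to each FPKM, for the 44 members (dark points) and all 10678 genes measured in both lines (grey; 39 genes beyond 2 on either axis are not drawn). STAMBPL1 sits at -1.11 and -1.22, past the dashed 1.5-fold lines on both axes, USP12 at 0.79 and -0.23, and the other members lie within the dashed lines.

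The endosomal group holds STAMBPL1, its relative STAMBP, and USP8, which acts on the ESCRT-0 complex and on receptors such as EGFR. In MIA PaCa-2, STAMBPL1 was at 2.90 FPKM in the mimic library and 7.40 in the scramble library, and in PSN-1 the values were 4.40 and 11.6. Both mimic libraries lay below both scramble libraries. The scramble value was 2.55 times the mimic value in MIA PaCa-2 (log2 change -1.11, counting SE 0.11) and 2.63 times in PSN-1 (-1.22, counting SE 0.089), where the ratios are of FPKM with nothing added.

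Among all measured genes, ranked from the lowest change, STAMBPL1 was 71 of 11484 for MIA PaCa-2 and 50 of 12233 for PSN-1. It was the single member lower past 2-fold in each line, where 0.81% of all genes were for MIA PaCa-2 and 0.777% for PSN-1. Its mean log2 change in limma was -1.16 (SE 0.16, adjusted p = 0.135), lower in 2 of 2 lines, so it did not pass the test over all genes. The adjusted p in limma ran from 0.0594 with median-ratio scaling to 0.9999 without the line as a block over the alternatives run.

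STAMBPL1 lies on chromosome 10 (88879734 to 88975153, plus strand, GRCh38), and the span of ACTA2, the smooth muscle actin gene on the other strand, overlaps it with 0 shared exon bases. ACTA2 was at 0.27 FPKM or less in all 4 libraries.

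STAMBP was slightly higher with the mimic in both lines. It was at 11.3 versus 10.3 FPKM in MIA PaCa-2 and 13.3 versus 12.1 in PSN-1, which are log2 changes of 0.12 and 0.13. The test of the difference between STAMBP and STAMBPL1 was not run. USP8, whose coding sequence holds an 8-base match, was at 11.7 versus 15.7 FPKM in MIA PaCa-2 (-0.39, counting SE 0.070) and at 18.8 versus 21.4 in PSN-1 (-0.18, counting SE 0.057), and limma's adjusted p was 0.605. The ESCRT-0 genes were named after their values were seen. STAM had changes of -0.42 and -0.16, STAM2 of 0.15 and 0.13, and HGS of 0.095 and -0.24.

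**Figure D3:**
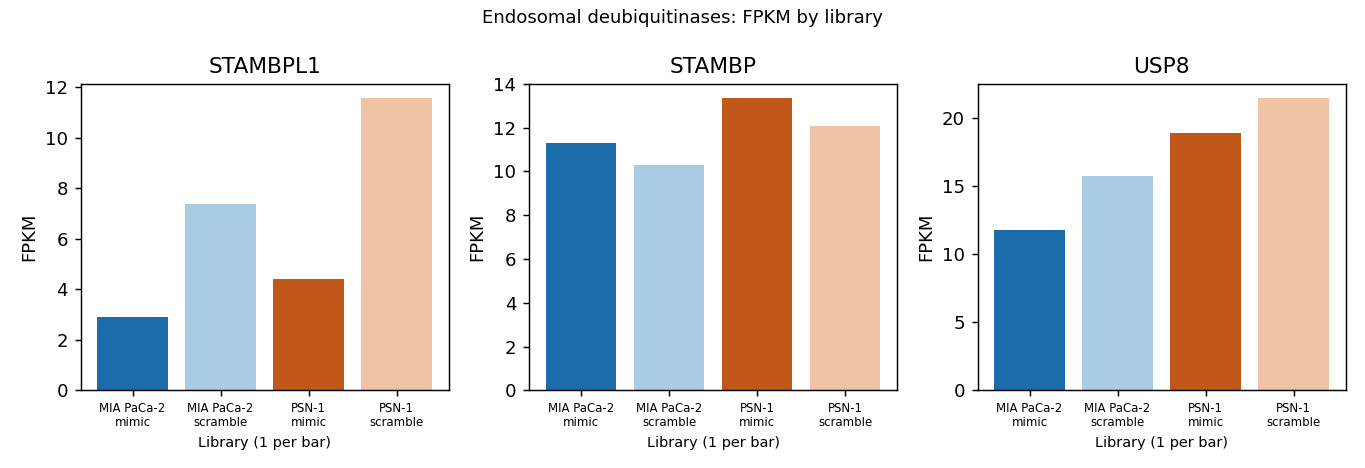
FPKM of STAMBPL1, STAMBP and USP8 in each library, 1 bar per library, with axes from 0. The STAMBPL1 bars are lower with the mimic in both lines (2.90 versus 7.40 and 4.40 versus 11.6), the STAMBP bars stand between 10.3 and 13.3, and USP8 is lower with the mimic by a smaller step.

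Among the proteases that bind WDR48, a WD40-repeat protein that activates them, USP12 was the member highest with the mimic in MIA PaCa-2. USP12 was at 45.2 versus 25.7 FPKM there (log2 change 0.79, counting SE 0.045) and at 20.1 versus 23.7 in PSN-1 (-0.23, counting SE 0.053). The MIA PaCa-2 mimic library thus stood above the other 3, which lay between 20.1 and 25.7 FPKM. In limma the mean change was 0.28 (SE 0.25, adjusted p = 0.785).

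USP1, which removes ubiquitin from FANCD2 and PCNA in DNA repair, was at 31.1 versus 35.6 FPKM in MIA PaCa-2 and 33.1 versus 34.1 in PSN-1. USP46 was at 2.39 versus 1.92 and 3.17 versus 3.33 FPKM. The changes of these genes, -0.19 and -0.040 for USP1 and 0.22 and -0.053 for USP46, did not pass 1.5-fold. Their activator WDR48 was higher in both lines (0.23 and 0.15), and its partner WDR20 had changes of 0.13 and -0.38.

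The proteases of histones H2A and H2B had 7 measured members in MIA PaCa-2, 4 higher and 3 lower (median 0.011). In PSN-1 all 6 measured were higher (median 0.20), where 28 of the 44 family members and 47.6% of all genes were. None passed 1.5-fold. USP3 was at 7.83 versus 5.39 FPKM in MIA PaCa-2 and 20.2 versus 16.9 in PSN-1, and USP16, which acts on histone H2A in mitosis, at 17.0 versus 13.5 and 25.7 versus 20.6. Both genes were higher with the mimic in both lines, by 0.47 and 0.25 for USP3 and by 0.31 and 0.31 for USP16, and limma's adjusted p was 0.529 and 0.538. USP3 shares 1760 exon bases with its antisense gene USP3-AS1, which was at 0.62 to 1.90 FPKM and had changes of 0.25 and 0.27.

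USP22, the protease of the SAGA coactivator complex, was at 85.6 versus 96.8 FPKM in MIA PaCa-2 and 50.01 versus 48.9 in PSN-1. ATXN7L3, its activating partner, had changes of -0.57 for MIA PaCa-2 and 0.043 for PSN-1. USP49 was at 2.096 versus 2.07 FPKM in MIA PaCa-2 and 3.16 versus 1.92 in PSN-1, where its change of 0.51 was the highest of the family. USP51 was at 1.12 versus 1.87 FPKM in MIA PaCa-2 (-0.44, counting SE 0.13) and listed at 0 in both PSN-1 libraries. USP27X, at 1.80 to 3.01 FPKM, and USP21, at 12.5 to 17.2 FPKM, had changes between -0.25 and 0.15.

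Of the 10 proteases tied to DNA repair, p53 and MYC, 8 were lower in MIA PaCa-2 (median -0.070) and 7 were higher in PSN-1 (median 0.071). In the whole family 25 of 45 were lower in MIA PaCa-2 and 28 of 44 higher in PSN-1, against 47.8% and 47.6% of all genes. None of the 10 passed 1.5-fold. USP11, which acts on BRCA2-dependent repair and is the most abundant of the family, was at 126 versus 150.5 FPKM in MIA PaCa-2 and 73.8 versus 68.6 in PSN-1. USP10, which stabilises p53, was at 60.5 versus 68.6 and 34.8 versus 36.1. USP7, the protease of MDM2 and p53, was at 20.3 versus 20.5 FPKM in MIA PaCa-2 and 51.4 versus 41.5 in PSN-1, changes of -0.015 and 0.30. MDM2 itself had changes of 0.17 and -0.28. USP36, a nucleolar protease that stabilises MYC, was higher in both lines (0.18 and 0.23), and USP37, which acts in the cell cycle, had changes of -0.098 and 0.38. USP28, USP47, USP48 and USP4 had changes between -0.24 and 0.10 in the 2 lines.

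USP13, which binds and cuts ubiquitin chains, was lower in both lines. It was at 4.51 versus 6.28 FPKM in MIA PaCa-2 and 5.59 versus 7.26 in PSN-1, changes of -0.40 (counting SE 0.071) and -0.32 (counting SE 0.065), with an adjusted p of 0.546 in limma. USP5, which takes apart free chains, and USP14, which sits on the proteasome, differed less: USP5 by -0.054 and 0.021 and USP14 by 0.020 and -0.061.

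The signalling and trafficking group had 9 measured members, 4 higher and 5 lower in MIA PaCa-2 and 8 higher and 1 lower in PSN-1 (medians -0.074 and 0.11). The whole family also leaned upward for PSN-1, with 28 of 44 members higher, where 47.6% of all genes were. For MIA PaCa-2, 20 of 45 members were higher, against 52.2% of all genes. USP32, a membrane-associated protease, was at 33.1 versus 26.3 FPKM in MIA PaCa-2 and 35.4 versus 26.7 in PSN-1. Both mimic libraries lay above both scramble libraries, and limma gave a mean change of 0.36 (SE 0.13, adjusted p = 0.458). USP15, which acts on TGF-beta receptor signalling, went opposite ways, at 7.81 versus 9.54 FPKM in MIA PaCa-2 (-0.26) and 15.6 versus 12.6 in PSN-1 (0.29). USP9X, a large protease of many trafficking and signalling proteins, had changes of 0.13 and 0.25, and USP34, which acts on axin in Wnt signalling, of 0.11 and 0.17. USP25 had changes of 0.17 and 0.11. USP19, USP20, USP33 and USP2 had changes between -0.22 and 0.072.

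USP30, the protease of the outer mitochondrial membrane that opposes mitophagy, was at 5.39 versus 5.53 and 7.59 versus 8.09 FPKM. USP39, a splicing factor of the U4/U6.U5 particle without protease activity, was at 52.8 versus 48.6 FPKM in MIA PaCa-2 and 41.3 versus 37.0 in PSN-1 (0.12 and 0.15). USP53 was at 0.923 versus 1.60 FPKM in MIA PaCa-2 (-0.43, counting SE 0.11) and 12.2 versus 12.3 in PSN-1 (-0.011). USP54 was at 23.6 versus 23.4 and 10.1 versus 13.1 FPKM (0.013 and -0.35), and 1528 of its exon bases overlap PPP3CB-AS1 on the other strand, which was at 0.92 to 1.34 FPKM. Among the remaining members USP42 had the largest change in PSN-1, at 20.1 versus 14.5 FPKM (0.45), and -0.10 in MIA PaCa-2. USP31, USP38 and USP35 went opposite ways in the 2 lines, with changes of 0.18 and -0.35, of -0.21 and 0.18, and of 0.12 and -0.21. After correction for the GC content of the 3' UTR, the USP35 change in PSN-1 was -0.12. USP24, USP40 and USP45 lay between -0.091 and 0.081 in both lines.

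**Figure D4:**
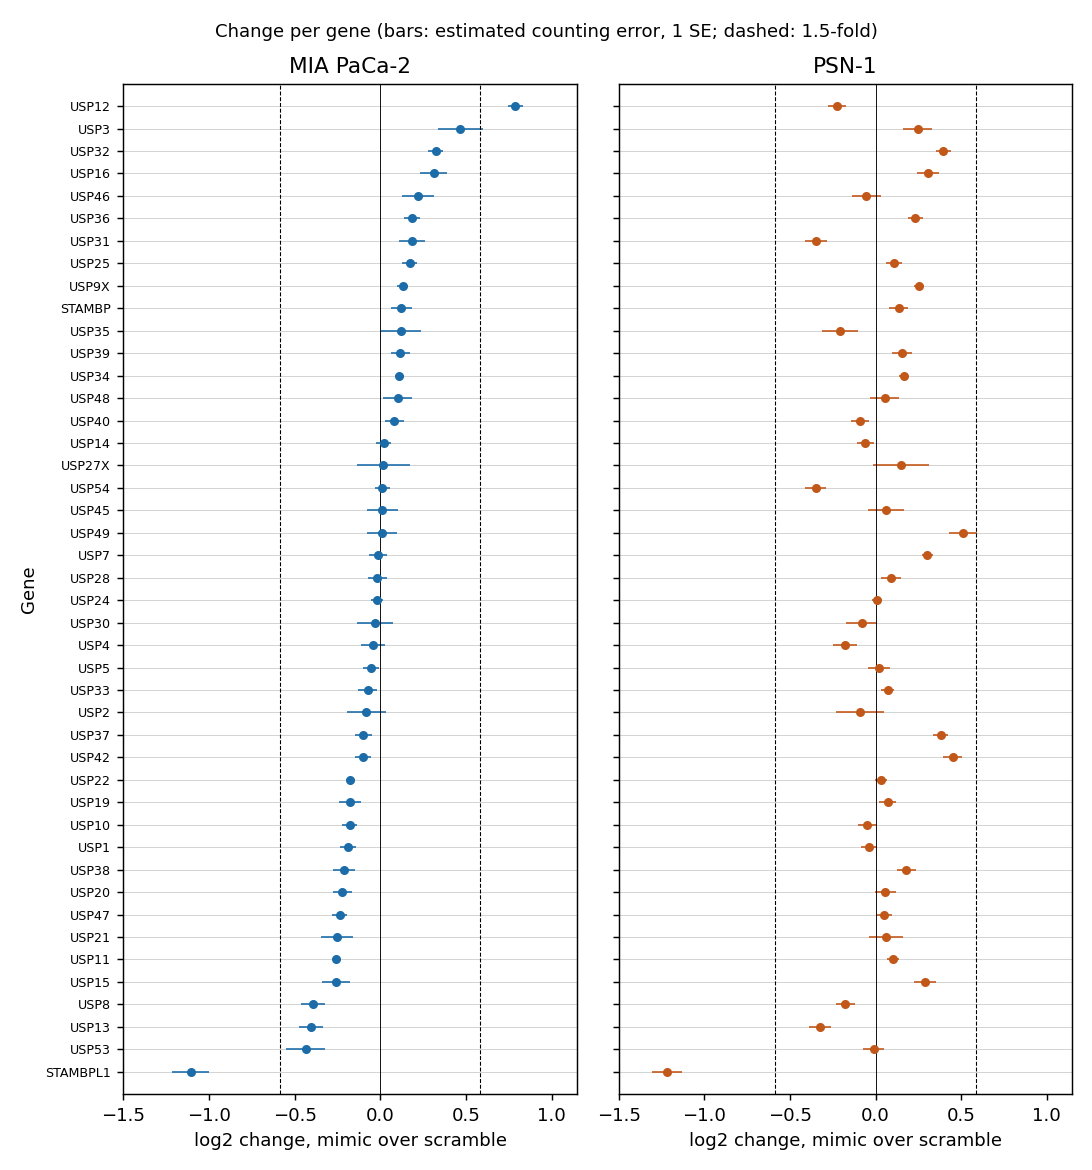
Log2 change with the mimic for the 44 members in MIA PaCa-2 (left, which sets the order) and PSN-1 (right); bars are the estimated counting error of that change (1 SE) and leave out any spread between cultures. STAMBPL1 is alone below the lower dashed 1.5-fold line in both lines and USP12 alone above the upper one in MIA PaCa-2.

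Members with a seed match in the messenger RNA did not share a direction. Of the 7 that were measured in both lines, 2 were lower in both (USP8 and USP53), 1 was higher in both (USP25) and 4 went opposite ways, and of the 37 without a match 7 were lower in both, 12 higher in both and 18 opposite. The medians were -0.098 for MIA PaCa-2 and -0.011 for PSN-1 with a match, and -0.017 and 0.059 without. The genes with a match in the 3' UTR were USP31 (0.18 and -0.35) and USP37 (-0.098 and 0.38). The 8-base matches, in USP8 and USP53, lay in coding sequences, and these 2 genes were among the 5 members lowest in MIA PaCa-2. There USP53 was near the filter, at 0.923 versus 1.60 FPKM. In PSN-1 the changes were smaller, -0.18 for USP8 and -0.011 for USP53. These are descriptions, and pairing at these places was not measured.

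Many more members were called between the lines than between the oligonucleotides. In the same limma fit, 10 of 44 members were higher in PSN-1 and 10 were higher in MIA PaCa-2 at an adjusted p under 0.05, where 24.2% and 27.5% of 10678 genes were, so the family's share (20 of 44) was close to the 51.7% of all genes. The 2 libraries of a line differ in the oligonucleotide and come from 1 line, so the test compares these lines only.

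USP53 differed most. It was at 0.923 and 1.60 FPKM in the MIA PaCa-2 libraries and at 12.2 and 12.3 in those of PSN-1 (log2 difference 2.57, SE 0.19, adjusted p = 0.000432 in limma). USP3 (1.38, SE 0.15, adjusted p = 0.00136), USP7 (1.14, SE 0.14, adjusted p = 0.00189) and USP33 (0.98, SE 0.13, adjusted p = 0.0021), a protease of the beta-adrenergic receptor, followed in limma. USP19, USP15, USP24, USP16, USP8 and STAMBPL1 were the others higher in PSN-1, by 0.53 to 0.75. STAMBPL1 was at 2.90 and 7.40 FPKM in MIA PaCa-2 and at 4.40 and 11.6 in PSN-1, so that its libraries overlapped between the lines.

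Higher in MIA PaCa-2 were USP2 (4.60 and 4.92 FPKM, against 1.56 and 1.73 in PSN-1), with a log2 difference of -1.12 (SE 0.18, adjusted p = 0.00426 in limma), USP54 (-0.97), USP11 (-0.94), USP22 (-0.87), USP5 (-0.87), USP45 (-0.87), USP10 (-0.84), USP42 (-0.61), USP14 (-0.48) and USP39 (-0.37). Of the 5 genes with the highest mean, 4 (USP11, USP22, USP10 and USP39) were thus higher in MIA PaCa-2 and USP33 was higher in PSN-1. The members nearest to no difference were USP36, USP1, USP4 and USP48, within 0.025 of 0.

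**Figure D5:**
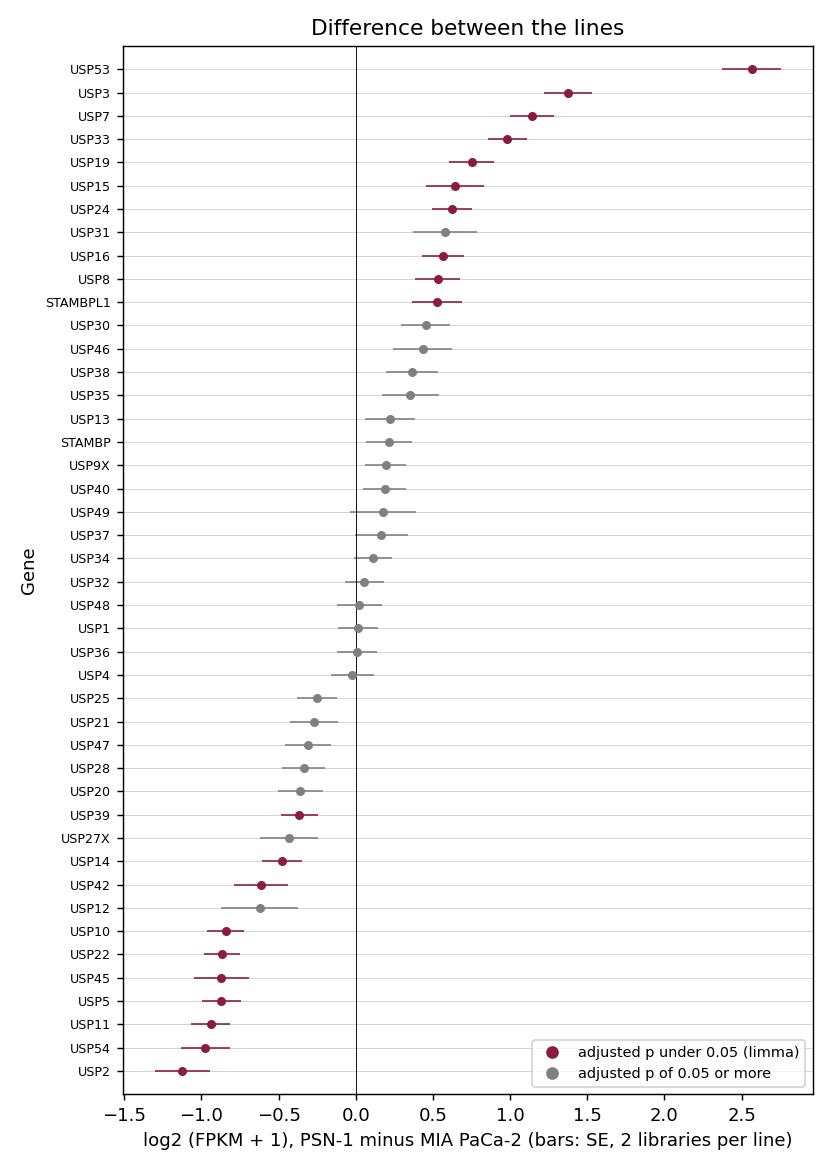
Difference of log2 (FPKM + 1) between PSN-1 and MIA PaCa-2 for the 44 members, from limma over 2 libraries per line, with bars of 1 SE; dark points have an adjusted p under 0.05. USP53 is the highest at 2.57 and USP2 the lowest at -1.12, and the 20 dark points are split 10 to 10.

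A list of 38 genes stands for the other deubiquitinase families. It was made by family, without a check that each product removes ubiquitin. In each line 35 were measured. In both MIA PaCa-2 and PSN-1, 1 was higher and 0 were lower past 1.5-fold, although not the same gene. In MIA PaCa-2 it was JOSD1, a Josephin-type deubiquitinase, at 12.4 versus 7.39 FPKM (0.67), and 9.32 versus 6.08 in PSN-1 (0.54). The PSN-1 change of JOSD1 lay near the threshold. It was 0.61, past 1.5-fold, with 0.1 added in place of 1, and also after correction for the GC content of the 3' UTR. In PSN-1 it was TNFAIP3 (A20), the OTU-type inhibitor of NF-kB signalling, at 65.2 versus 26.6 FPKM (1.26), and 2.74 versus 2.53 in MIA PaCa-2 (0.08). USPL1 lay just short of the threshold on the lower side in MIA PaCa-2, at 15.6 versus 23.8 FPKM (-0.577), and its PSN-1 change was 0.0042. OTUB2 was at 1.63 versus 2.68 FPKM in MIA PaCa-2 (-0.49) and 17.0 versus 18.7 in PSN-1 (-0.13). Neither gene was followed in the alternative settings. Of the 35 measured, 19 were higher and 16 lower in each line, where 52.2% and 47.6% of all genes were higher. The list medians were 0.026 and 0.014. Of the 10 other JAMM-family genes, 6 were higher for MIA PaCa-2 and 7 for PSN-1, where 52.2% and 47.6% of all genes were. None of the 10 passed 1.5-fold. Of 13 partner genes and of 6 genes for ubiquitin and its activating enzymes, none passed 1.5-fold in either line.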

How the data were processed

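The 4 libraries were made with a stranded mRNA kit, per the labels' protocols. Per the file headers, the authors deposited 1 FPKM value for each symbol and library. TopHat2 2.1.1, Cuffdiff 2.2.1 and hg19 are named in the submitters' processing notes, with no role; which annotation, strand setting or scaling they used is not given in the sources used here. Members and lists were chosen with earlier results of these data known. Changes were differences of log2(FPKM + 1), and a gene was kept where its mean in the line reached 1 FPKM. Limma 3.58.1 under R 4.3.3 (two-sided, with a block for the line, lmFit and trended eBayes) was run on all genes measured in both lines. It was also run on simulated data with equal changes in both lines, which does not measure its error rate on these libraries. Libraries were paired through their line; the labels number no replicates. Counting errors assume a fragment length of 200 bases and the length of the GENCODE 29 transcript with the longest coding sequence. The worth of 1 fragment was the most frequent value among low values of genes with a single transcript of at least 1000 bases. Errors were carried to the log2(FPKM + 1) scale by the delta method and leave out any spread between cultures. Named genes were the members past 1.5-fold in a line, the 5 of highest mean, the 5 leading changes in the same and in opposite directions, those under the filter, and list genes past 1.5-fold; members of role groups were added so that each is accounted for. USP9Y is counted and its values are left out. Alternatives are given at the end. Python 3.11.15, numpy 2.4.6, pandas 2.3.3 and matplotlib 3.10.9 were used.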

Additional observations from a re-analysis of the deposited data

Results flagged for a closer look

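USP12 had opposite signs in the 2 lines while past 1.5-fold in MIA PaCa-2: its log2 change was 0.79 there and -0.23 in PSN-1, a difference of 1.02. With 1 library per group this difference between the lines could not be tested.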

How the results depend on the processing

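No paired analysis by replicate number was possible because the labels carry no replicate numbers and each group has 1 library; for the same reason no replicate could be left out. With a pseudocount of 0.1, 4 members passed 1.5-fold in MIA PaCa-2 (USP51 and USP53 joined STAMBPL1 and USP12) and 2 in PSN-1 (USP49 joined STAMBPL1), while 13.1% and 10.9% of all genes did; at a threshold of 2-fold, 1 member passed in MIA PaCa-2. The counts of members past 1.5-fold were the same with no filter, with a filter of 5 FPKM, under median-ratio scaling and after correcting for the GC content of the 3' UTR, an alternative chosen after seeing the data. The GC correction moved 5 of the single changes followed by over 1.5 times, with no change of sign: in PSN-1 USP11 went from 0.10 to 0.19, USP22 from 0.031 to 0.080, USP33 from 0.071 to 0.031 and USP35 from -0.21 to -0.12, and in MIA PaCa-2 USP33 went from -0.074 to -0.13. Median-ratio scaling did so for USP22 (0.049) and USP10 (-0.048 to -0.031) in PSN-1. Smaller moves in PSN-1 that were still larger than the counting SE were those of USP16 and USP31. USP16 went from 0.31 to 0.23 after the GC correction, and USP31 from -0.35 to -0.41 with the pseudocount of 0.1. The list gene JOSD1 passed 1.5-fold in PSN-1 with the pseudocount of 0.1 and after the GC correction (0.61 in each). The median change lay between -0.057 and -0.018 in MIA PaCa-2 and between 0.051 and 0.072 in PSN-1 over those settings and the pseudocount of 0.1. Limma called 0 members for the shared effect in every setting run, and 17 to 21 members for the line difference; USP39, STAMBPL1, USP8, USP15 and USP42 were each lost in at least 1 of them. Over all genes, the limma calls for the shared effect numbered 7, also with a pseudocount of 0.1, 8 at the 5 FPKM filter, 6 without the trend, 37 under median-ratio scaling (22 higher, 15 lower), and 0 either unfiltered or when the line was left out as a block. Depth limits the low members most: the counting SE of the log2 change was 0.15 for USP27X in MIA PaCa-2, its highest among measured members, and 0.16 for it in PSN-1.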
